A study of Mus musculus with 12 samples.

Results

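The proteasome genes of the mouse heart were described across 12 RNA sequencing libraries, 3 in each of 4 groups: wild-type hearts at postnatal day 1 (WT P1) and day 21 (WT P21), and hearts labelled Csrp3 knockout (Csrp3 KO) at the same ages. The genes were taken by symbol and biotype, as the protein-coding rows whose name begins with Psma, Psmb, Psmc, Psmd or Psme followed by a digit. This gave 46 of the 56748 rows of the deposited table. Of these, 44 encode subunits, assembly chaperones or activators of the proteasome. The other 2, Psmc3ip and Psme3ip1, encode interacting proteins that are no subunits and were left out of every summary. Psmc3ip was set aside from the start and Psme3ip1 after its row was seen. All hearts were otherwise given only by genotype and age. The labels state no strain, sex, knockout allele or litter, and nothing there tells whether each library of a group is another animal, so the p-values cover library-to-library spread, possibly technical only.

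The proteasome degrades proteins tagged with ubiquitin. Its barrel, the 20S core, is a stack of rings of alpha subunits (Psma genes) and beta subunits (Psmb genes), and the cutting is done by the beta subunits Psmb5, Psmb6 and Psmb7. In the immunoproteasome these are replaced, one for one, by Psmb8, Psmb9 and Psmb10, which change the peptides made, favour those presented on MHC class I, and are known to respond to interferon. The 19S cap, made of ATPases (Psmc genes) and non-ATPase subunits (most Psmd genes), recognises and unfolds the substrate, and the PA28 (Psme1, Psme2, Psme3) and PA200 (Psme4) activators are alternative caps. Heart muscle depends on the proteasome to turn over sarcomere proteins.

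The libraries held 9.67 to 15.9 M reads in genes. Values are FPKM, a read level corrected for gene length and sequencing depth, and changes are log2 differences of FPKM + 0.5 from 1 limma fit of 13537 genes. The authors' library scaling factor lay at 1.14 to 1.17 at P1 and at 0.605 to 0.944 at P21, with WT P21 replicates 2 (0.605) and 1 (0.761) lowest. These 2 libraries also had the fewest reads in genes. Their deposited library names, alone among the 12, end in the letter R, which the labels do not explain. Csrp3 RNA was present in every library, at 94.3 to 168 FPKM in the libraries labelled Csrp3 KO at P1 and 671 to 1112 at P21, so the labels rest on the submitters' word, and a gene row cannot show which part of the gene was altered. Heart muscle markers stood high in all libraries, with 8 markers summing to between 9123 and 37418 FPKM. In whole hearts, fewer cells of a type and less RNA per cell cannot be told apart.

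Proteasome RNA was abundant and its levels spanned a wide range. Of the 44 genes, 42 reached an FPKM of 1 in at least 3 libraries and were tested. Over the 12 libraries the highest mean levels per length belonged to the alpha subunit Psma6 (154 FPKM) and the beta subunits Psmb4 (124 FPKM) and Psmb6 (109 FPKM), followed by the ATPases Psmc3 (90.6 FPKM) and Psmc5 (83.0 FPKM). Psmb5 stood at 76.8 FPKM and Psmb7 at 27.3 FPKM. The 19S assembly chaperones, which bind ATPases before the cap closes, were low, with Psmd5 at 3.83, Psmd9 at 3.55 and Psmd10 at 11.03 FPKM. The immunoproteasome subunits did not sit together: Psmb10 had 38.4 FPKM, near the middle of the range, while Psmb8 (3.82 FPKM) and Psmb9 (2.23 FPKM) were, with Psmd5 and Psmd9, the 4 lowest of the 42 tested genes. Psma8, the germ-line alpha subunit, stayed between 0 and 0.498 FPKM with 135 reads in all, and Psmb11, the beta subunit of the thymus, had 4 reads over the 12 libraries.

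**Figure D1:**
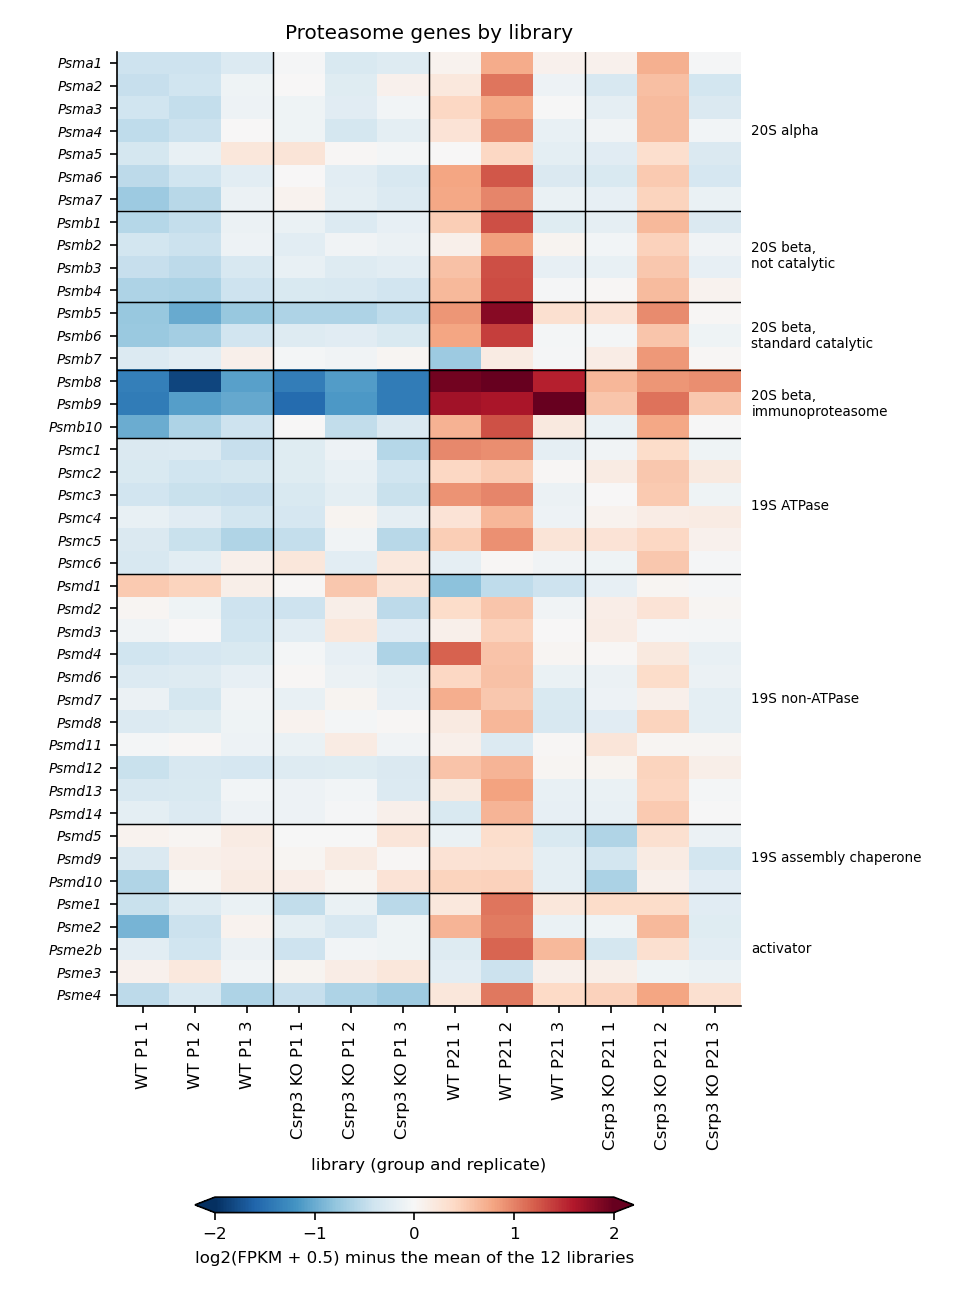
Level of each of the 42 tested proteasome genes (rows, by class) in each of the 12 libraries (columns), as log2(FPKM + 0.5) minus the mean of the 12 libraries. Psmb8 and Psmb9 are low in all 6 P1 libraries and high in all 6 P21 libraries, WT P21 replicate 2 and Csrp3 KO P21 replicate 2 are high for most genes at the deposited scaling, and Psmd1 runs the other way in wild type.

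Psmb8, the immunoproteasome counterpart of Psmb5, had with Psmb9 the largest changes with age among the subunit genes, and which of the pair was ahead depended on the scaling and the value added. Its FPKM was 0.543, 0.257 and 0.777 in WT P1, 0.532, 0.751 and 0.522 in Csrp3 KO P1, 9.85, 12.3 and 7.42 in WT P21 and 3.78, 4.49 and 4.65 in Csrp3 KO P21. Every P21 library was above every P1 library, and the 3 WT P21 libraries were all above the 3 Csrp3 KO P21 libraries. The rise was 3.34 on the log2 scale in wild type (SE 0.24, adjusted p = 5.23e-06), 10.1-fold, and 2.13 in Csrp3 KO (SE 0.24, adjusted p = 0.000127), 4.36-fold. At P1 the values rested on 15 to 47 reads per library and at P21 on 126 to 335, and the added 0.5 FPKM understates folds at such low levels.

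Psmb9, the counterpart of Psmb6, followed the same pattern. It stood at 0.177, 0.332 and 0.382 FPKM in WT P1 and 0.119, 0.305 and 0.179 in Csrp3 KO P1, against 5.25, 5.05 and 7.41 in WT P21 and 2.14, 3.29 and 2.09 in Csrp3 KO P21. Again the ages did not overlap in either genotype. The log2 rise was 3.00 in wild type (SE 0.24, adjusted p = 1.04e-05) and 2.09 in Csrp3 KO (SE 0.24, adjusted p = 0.000138). Among the 13537 genes, Psmb8 ranked 75 and Psmb9 ranked 124 by size of rise in wild type, and 233 and 258 in Csrp3 KO. The 2 genes reached 1 FPKM only in the 6 P21 libraries, so they passed the filter through that age alone. Their ranks and the adjusted p of their age changes are therefore descriptive. Both genes were called in all 27 other settings in each genotype, the scalings and a fit with no filter on low values included.

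Psmb8 and Psmb9 are neighbours. The table places Psmb8 on chromosome 17 from 34416695 to 34420428 on the plus strand and Psmb9 from 34400961 to 34406738 on the minus strand, 9956 bases apart. The sources used here do not name the genome build of these positions. Psmb10, the third immunoproteasome subunit and counterpart of Psmb7, lies on chromosome 8.

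The promoters of Psmb8, Psmb9, Psmb5 and Psme4 are shown from the age comparison. Psmb8 and Psmb9 rose together, Psmb5 is a standard catalytic subunit and Psme4 an activator. Psmd1, which fell in wild type in all 27 other settings, is not among them. Each window spans the start site and is written 5′ to 3′ on the gene's strand, from RefSeq on GRCm38.p6, matched by symbol. Psmb8 is chr17:34197945-34198244 on the plus strand, Psmb9 chr17:34187281-34187580 on the minus strand, Psmb5 chr14:54617946-54618245 on the minus strand and Psme4 chr11:30771525-30771824 on the plus strand. Capitals mark the letters TGACNNNGC on either strand, the core of the antioxidant response element that the Nfe2l factors bind.
Psmb8: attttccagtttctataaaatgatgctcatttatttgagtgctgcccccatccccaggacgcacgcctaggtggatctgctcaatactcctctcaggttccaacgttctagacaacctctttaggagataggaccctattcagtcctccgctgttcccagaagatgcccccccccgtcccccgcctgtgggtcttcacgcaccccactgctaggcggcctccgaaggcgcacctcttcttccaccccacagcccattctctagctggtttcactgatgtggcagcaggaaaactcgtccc
Psmb9: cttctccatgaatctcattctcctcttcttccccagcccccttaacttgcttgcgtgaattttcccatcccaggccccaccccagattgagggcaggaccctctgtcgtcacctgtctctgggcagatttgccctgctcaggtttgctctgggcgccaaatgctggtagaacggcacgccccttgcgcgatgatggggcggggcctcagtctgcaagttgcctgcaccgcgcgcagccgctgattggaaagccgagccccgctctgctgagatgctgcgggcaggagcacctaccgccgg
Psmb5: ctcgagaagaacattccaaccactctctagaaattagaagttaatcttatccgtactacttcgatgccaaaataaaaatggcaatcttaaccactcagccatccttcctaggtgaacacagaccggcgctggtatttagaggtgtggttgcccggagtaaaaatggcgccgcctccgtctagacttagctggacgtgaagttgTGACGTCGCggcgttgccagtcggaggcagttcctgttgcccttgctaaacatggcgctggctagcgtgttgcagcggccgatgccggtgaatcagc
Psme4: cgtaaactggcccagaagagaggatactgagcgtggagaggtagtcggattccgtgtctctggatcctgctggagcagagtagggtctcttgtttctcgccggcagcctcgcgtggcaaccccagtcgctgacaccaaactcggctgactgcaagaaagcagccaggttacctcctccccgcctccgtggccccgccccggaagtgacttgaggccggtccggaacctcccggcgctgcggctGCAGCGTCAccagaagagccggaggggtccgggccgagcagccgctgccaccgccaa

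In these windows TGACNNNGC lay at 47 bases before the start of Psmb5 and, on the other strand, at 7 bases before that of Psme4. It was found in 6 of 37 subunit promoters with an entry (16.2%), those of Psmb5, Psmb6, Psmc6, Psmd9, Psmd12 and Psme4, against 12.5% of 27025 promoters. GAAANNGAA, the core of the interferon response factor site, was found in 5 of 37 (13.5%) against 8.57% of all, and in 0 of the 3 windows of Psmb8, Psmb9 and Psmb10. CCAAT, the NF-Y box, was found in 14 of 37 (37.8%) against 37.9%, Psmb9 included. The windows of Psmd1 and Psmb10, not printed here, held none of the 3 motifs. All 3 motifs were searched on both strands with no overlap removed between motifs, and a match or its absence is only a description of the letters in these windows. The deposited positions have no named build, so whether each window spans the start of the counted gene was not checked.

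Psmb10 moved less than the pair on chromosome 17. Its FPKM was 17.3, 22.6 and 25.9 in WT P1, 34.8, 24.6 and 28.2 in Csrp3 KO P1, 56.5, 85.1 and 40.1 in WT P21, and 31.6, 60.1 and 34.5 in Csrp3 KO P21. The ages were separate in wild type, while in Csrp3 KO the highest P1 library stood above the lowest P21 library. The rise was 1.40 in wild type (SE 0.31, adjusted p = 0.00424), which was 0.27 and not called under TPM, and the log2 difference in Csrp3 KO was 0.47 (SE 0.31, adjusted p = 0.294).

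**Figure D2:**
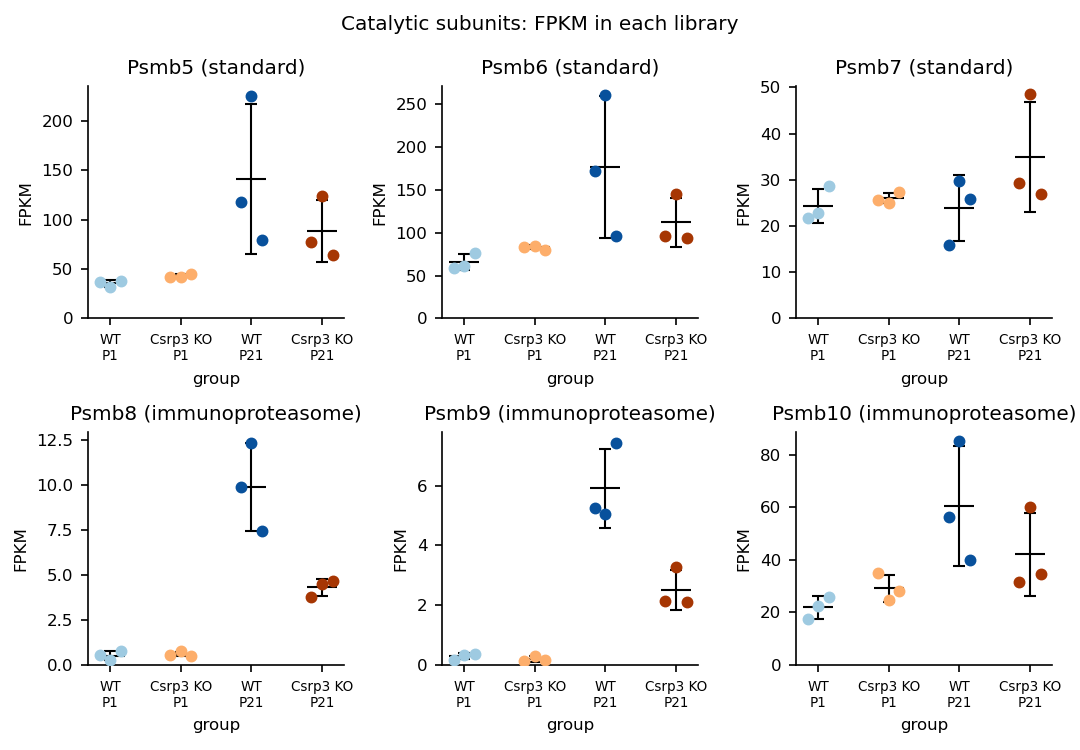
FPKM (y axis, from 0) of the 3 standard catalytic subunits (upper row) and their immunoproteasome counterparts (lower row) in each library by group (x axis); points are libraries, the long dash is the mean and the bars are 1 SD (n = 3). Psmb8 and Psmb9 are below 1 FPKM at P1 and between 2.09 and 12.3 FPKM at P21, while Psmb7 has overlapping values in all 4 groups.

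The standard catalytic subunits also differed among themselves. Psmb5, the chymotrypsin-like subunit, had 37.3, 31.4 and 37.6 FPKM in WT P1, 41.5, 41.5 and 44.8 in Csrp3 KO P1, 118, 225 and 79.4 in WT P21, and 77.2, 123 and 64.5 in Csrp3 KO P21. All P21 libraries exceeded all P1 libraries. It rose by 1.85 in wild type (SE 0.34, adjusted p = 0.00162), a call kept in all 27 other settings, and its log2 difference in Csrp3 KO was 0.99 (SE 0.34, adjusted p = 0.0543). Psmb6, the caspase-like subunit, had 59.2, 61.6 and 76.2 FPKM in WT P1 and 172, 260 and 96.2 in WT P21, and rose by 1.31 in wild type (SE 0.32, adjusted p = 0.00739), which was 0.17 and not called under TPM. In Csrp3 KO it went from 83.1, 84.8 and 80.1 to 96.5, 145 and 93.8, without overlap, with a log2 difference of 0.40 (SE 0.32, adjusted p = 0.397). Psmb7, the trypsin-like subunit, stood at 21.8, 22.9 and 28.6 FPKM in WT P1 and 15.8, 29.6 and 26.0 in WT P21, with a log2 difference of -0.07 (SE 0.27, adjusted p = 0.846), which was -1.19 and called lower under TPM.

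The ratio of each immunoproteasome subunit to the standard subunit it replaces is free of library scaling. Psmb8 made up 0.812 to 2.02% of the summed FPKM of Psmb8 and Psmb5 in the 6 P1 libraries. At P21 it made up 7.69, 5.17 and 8.55% in wild type and 4.66, 3.51 and 6.72% in Csrp3 KO. The ages did not overlap and the genotypes did. Over both genotypes, the log2 ratio rose by 2.17 between the ages, 4.49-fold (exact permutation test within genotype, two-sided, adjusted p = 0.015 over 6 tests, higher in 6 of 6 P21 libraries than in any P1 library).

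For Psmb9 the share of the pair with Psmb6 was 0.143 to 0.537% in the 6 P1 libraries. It was 2.96, 1.90 and 7.15% in WT P21 and 2.17, 2.22 and 2.18% in Csrp3 KO P21. The ages were again separate, and the Csrp3 KO P21 values fell within the wild-type range. The log2 ratio rose by 3.18, 9.06-fold (exact permutation test, adjusted p = 0.015). For both pairs the unadjusted p was 0.005, the smallest that these permutations can give.

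Psmb10 held 44.3, 49.7 and 47.5% of its pair with Psmb7 in WT P1 and 57.5, 49.5 and 50.8% in Csrp3 KO P1. At P21 it held 78.1, 74.2 and 60.7% in wild type and 52.0, 55.2 and 56.2% in Csrp3 KO. The wild-type P21 libraries were above all others, whereas Csrp3 KO overlapped between the ages. Over both genotypes the log2 difference between the ages was 0.80 (exact permutation test, adjusted p = 0.06). Within P21 the ratio was lower by 1.07 in Csrp3 KO without overlap (exact permutation test, p = 0.1, the smallest that 3 against 3 libraries allow), and in WT P21 replicate 1 the high share goes with the lowest Psmb7 value of all libraries.

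Between genotypes over both ages, no ratio passed. The log2 difference, Csrp3 KO minus wild type, was -0.27 for Psmb8/Psmb5, -0.81 for Psmb9/Psmb6 and -0.38 for Psmb10/Psmb7 (exact permutation test within age, adjusted p = 0.37, 0.0825 and 0.33). Without WT P21 replicate 2 the Psmb9/Psmb6 difference was -1.03 (exact permutation test, adjusted p = 0.02), and with any other single library left out it did not pass. Within the ages it was -0.94 at P1, where Psmb9 rested on 7 to 25 reads per library, and -0.67 at P21.

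**Figure D3:**
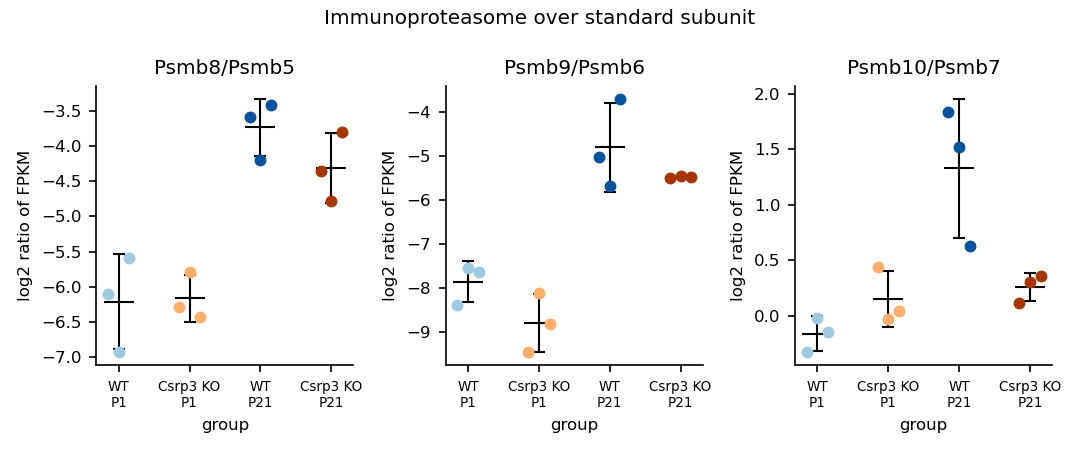
Log2 ratio of FPKM (y axis) of each immunoproteasome subunit over the standard subunit it replaces, by group (x axis); points are libraries, the long dash is the mean and the bars are 1 SD (n = 3). For Psmb8/Psmb5 and Psmb9/Psmb6 all P21 libraries lie above all P1 libraries, and for Psmb10/Psmb7 the 3 WT P21 libraries lie above the other 9.

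Genes of interferon signalling and antigen processing moved with Psmb8 and Psmb9. Of 11 tested, 9 rose in wild type and 9 in Csrp3 KO from P1 to P21, where 21.5% and 11.8% of all genes were called higher. The median changes were 1.55 and 1.20 beside -0.04 and -0.02 for all genes. Under TPM the medians were 0.64 and 0.68 beside -1.01 and -0.61 for all genes. There 4 were called higher and 1, Irf8, lower in each genotype. Of all genes under TPM 5.65% were called higher and 62.2% lower in wild type, and 4.69% and 37.8% in Csrp3 KO. Irf1, an interferon-induced transcription factor, rose by 2.52 in wild type (adjusted p = 1.41e-05) and 1.98 in Csrp3 KO (adjusted p = 9.09e-05). The MHC class I gene H2-D1 rose by 2.18 and 1.58, and the peptide loading factor Tapbp by 1.35 and 0.73, which was not called under TPM. Their summed level was 114 to 154 FPKM in the P1 libraries and 266 to 694 at P21, highest in WT P21 replicate 3, the library with the highest Psmb9 value and the lowest Psmb8 value of its group.

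Markers of leukocytes, which are known to express immunoproteasome subunits strongly, moved with age too. Of 10 tested, 7 were called higher and 1 lower in wild type, and 6 higher and 2 lower in Csrp3 KO, against 3 and 1, and 4 and 2, under TPM. Of all genes 21.5% were called higher and 23.3% lower in wild type and 11.8% and 13.2% in Csrp3 KO. Under TPM the shares were 5.65% and 62.2% in wild type and 4.69% and 37.8% in Csrp3 KO. The marker counts here are to be read against these shares. The 12 markers summed to 38.3 to 63.5 FPKM at P1, 155 to 429 in WT P21 and 165 to 299 in Csrp3 KO P21. The macrophage genes Lyz2 (2.84 in wild type, 2.65 in Csrp3 KO) and C1qa (2.80 and 2.35) rose, the neutrophil gene Ngp fell (-1.88 and -3.06) and the class II chain Cd74 rose (2.55 and 2.91). The pan-leukocyte gene Ptprc stayed between 0.0705 and 0.638 FPKM, Cd3e was listed at 0 in 2 libraries of every group and Ngp in 5 of the 6 P21 libraries. The part of leukocytes in the Psmb8 and Psmb9 values was not tested. With age in wild type, 4 of 8 heart muscle, 2 of 6 endothelial and 5 of 5 red cell markers were called higher, all 6 dividing cell markers lower, and of 6 fibroblast markers 1 higher and 3 lower. Under TPM 2 heart muscle markers were higher and 1 lower, 3 endothelial and 5 fibroblast markers lower, 4 red cell markers higher and 6 dividing cell markers lower. In Csrp3 KO at the deposited scaling the calls were the same in number, except that 2 fibroblast markers were higher and 0 lower.

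Across the standard 20S and 19S genes the calls with age depended on the scaling. At the deposited scaling, 19 of the 42 subunit genes were called higher and 1 lower at P21 in wild type, where 21.5% of all genes tested were called higher and 23.3% lower. After each library was rescaled to the same summed FPKM, which is TPM (FPKM rescaled so that all libraries have 1 total) up to a constant, 3 were called higher and 21 lower, where 5.65% of all genes were called higher and 62.2% lower. The median of all genes was -0.04 at the deposited scaling and -1.01 under TPM, and that of the subunit genes 0.69 and -0.44. Relative to the median of all genes the subunit genes thus stood at 0.72 and 0.57, and at 0.58, 0.63 and 0.23 by a scaling that omits mitochondrial genes and the 20 highest, by one that drops the authors' factor and by quantiles. Without WT P21 replicates 1 and 2, which left replicate 3 alone in its group, the relative median was 0.21.

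In Csrp3 KO fewer subunit genes passed. At P21, 4 of 42 were called higher and 0 lower, where 11.8% of all genes were called higher and 13.2% lower, and the median was 0.27 beside -0.02 for all genes. Under TPM 2 were higher and 13 lower, beside 4.69% and 37.8% of all genes. The groups of the 2 ages did not overlap for 21 subunit genes higher and 1 lower in wild type, where 24.4% of all genes were higher and 27.5% lower. The corresponding counts in Csrp3 KO were 13 higher and 0 lower, where 22.6% of all genes were higher and 24.8% lower.

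**Figure D4:**
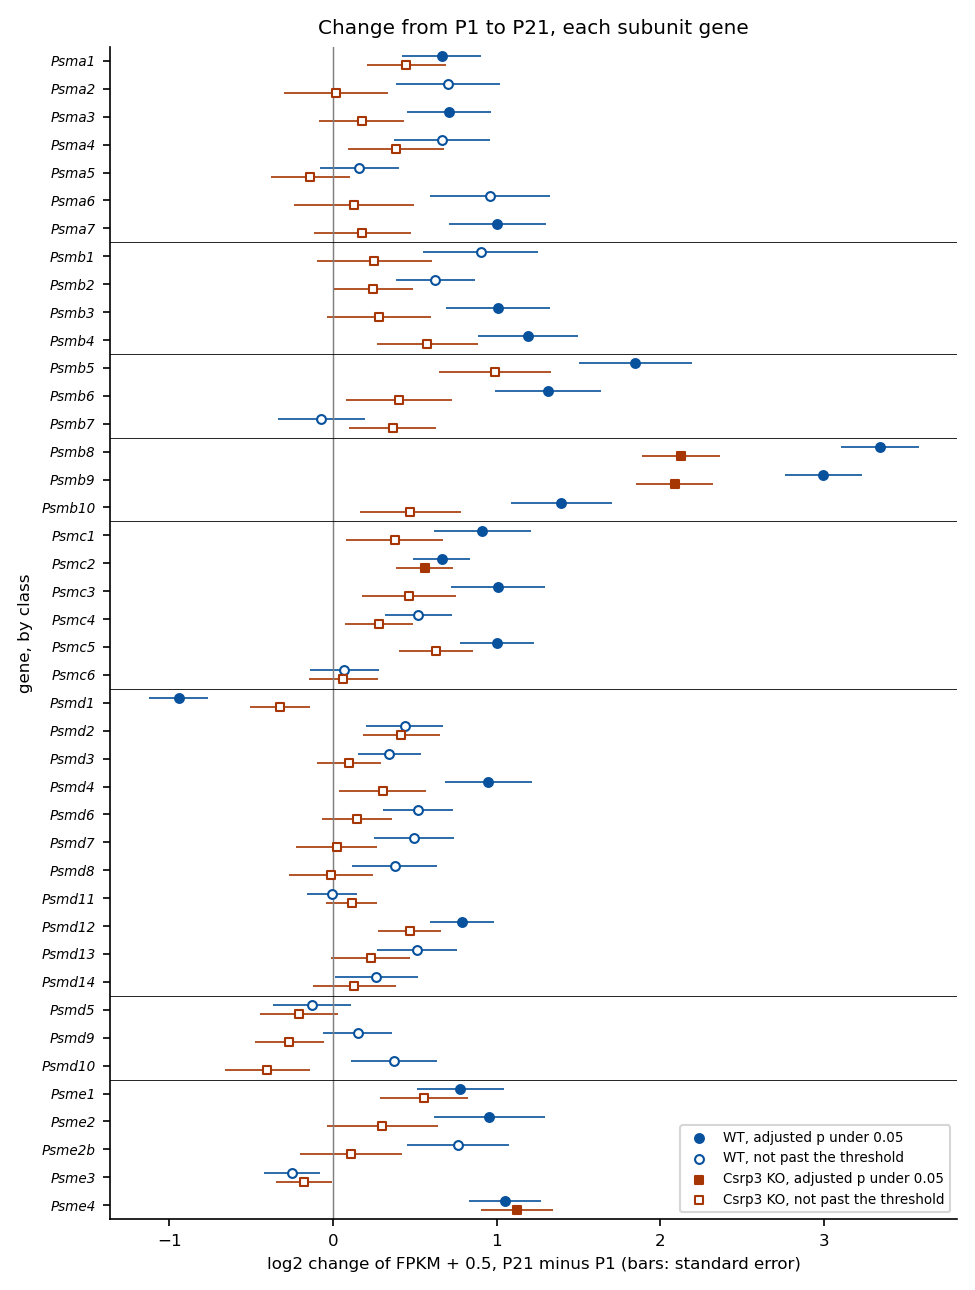
Log2 change of FPKM + 0.5 from P1 to P21 (x axis) for each of the 42 tested subunit genes (y axis, by class) in wild type (circles) and Csrp3 KO (squares), with standard errors as bars; filled symbols passed an adjusted p of 0.05. At the deposited scaling Psmb8 and Psmb9 stand farthest to the right in both genotypes and Psmd1 farthest to the left in wild type; under TPM scaling 13 of the 19 genes called higher in wild type have a negative value.

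Among the alpha subunits, Psma7 rose by 1.01 (SE 0.30, adjusted p = 0.0175) in wild type, with 30.7, 34.6 and 46.8 FPKM in WT P1 and 87.6, 100 and 46.7 in WT P21. One P21 library therefore lay just under the highest P1 library. At the deposited scaling all 7 alpha genes had a positive log2 difference in wild type, and 3 passed, where 21.5% of all genes were called higher. Under TPM Psma7 was at -0.13 and Psma1, Psma4 and Psma5 were called lower, where 62.2% of all genes were. Of the beta subunits without catalytic activity, Psmb4 rose by 1.19 (SE 0.31, adjusted p = 0.00911), from 74.3, 73.4 and 85.4 to 178, 282 and 112 FPKM, and was at 0.05 and not called under TPM. Psmb3 rose by 1.01 (SE 0.32, adjusted p = 0.0235), which became -0.13 under TPM.

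The 19S ATPases, which unfold the substrate, had 4 of 6 genes called higher in wild type at the deposited scaling, a direction that TPM turns. Of all genes 21.5% were called higher there. Psmc5 stood at 64.0, 58.0 and 51.9 FPKM in WT P1 and 110, 149 and 94.7 in WT P21 and rose by 1.00 (SE 0.23, adjusted p = 0.00456). Psmc3 rose by 1.01 (SE 0.29, adjusted p = 0.0147) and Psmc1 by 0.91 (SE 0.30, adjusted p = 0.0261). Psmc2 rose in both genotypes, by 0.67 in wild type (SE 0.17, adjusted p = 0.0097) and by 0.56 in Csrp3 KO (SE 0.17, adjusted p = 0.0355), but was called lower in wild type under TPM (-0.45). Psmc6 was at 0.07 and 0.06, and was called lower in both genotypes under TPM (-1.06 and -0.60).

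Psmd1, the large scaffold subunit of the 19S base, was the one subunit gene that fell at the deposited scaling, and it was among the 21 that fell under TPM. It had 16.7, 15.8 and 12.6 FPKM in WT P1, 11.8, 16.9 and 13.9 in Csrp3 KO P1, 6.31, 7.93 and 8.54 in WT P21, and 10.2, 11.8 and 11.4 in Csrp3 KO P21. In wild type all P21 libraries were below all P1 libraries, while Csrp3 KO overlapped between the ages. Psmd1 fell by 0.94 in wild type (SE 0.18, adjusted p = 0.00198), a call kept in all 27 other settings, and its log2 difference in Csrp3 KO was -0.32 (SE 0.18, adjusted p = 0.219), which under TPM was -0.97 and called lower (limma, adjusted p = 0.0145). Psmd2, the other large scaffold of the base, had a log2 difference of 0.44 in wild type that did not pass. The ubiquitin receptor Psmd4 rose by 0.95 (SE 0.27, adjusted p = 0.0139) and the lid subunit Psmd12 by 0.79 (SE 0.19, adjusted p = 0.00709), at -0.18 and -0.34 under TPM. The levels of Psmd4 in WT P21 were 94.5, 61.8 and 42.4 FPKM, so replicate 1 was highest for this gene and not replicate 2.

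Among the assembly chaperones none of 3 passed in either genotype at the deposited scaling. There the log2 differences were -0.13 for Psmd5, 0.15 for Psmd9 and 0.37 for Psmd10 in wild type and -0.21, -0.27 and -0.40 in Csrp3 KO. Under TPM all 3 were called lower in both, where 62.2% of all genes were called lower in wild type and 37.8% in Csrp3 KO. Of the activators, Psme4 (PA200) was called in both genotypes at the deposited scaling and was at -0.06 in wild type under TPM. It had 11.9, 13.7 and 11.1 FPKM in WT P1, 12.4, 11.1 and 10.4 in Csrp3 KO P1, 20.3, 36.6 and 23.0 in WT P21 and 24.0, 30.4 and 21.8 in Csrp3 KO P21. Both genotypes were without overlap between the ages. The rise was 1.05 in wild type (SE 0.22, adjusted p = 0.00307) and 1.12 in Csrp3 KO (SE 0.22, adjusted p = 0.00382).

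The interferon-inducible PA28 subunits Psme1 and Psme2 moved less than Psmb8. Psme1 rose by 0.78 in wild type (SE 0.27, adjusted p = 0.0338) and Psme2 by 0.96 (SE 0.34, adjusted p = 0.0377), against -0.36 and -0.17 under TPM, and neither passed in Csrp3 KO (0.55 and 0.30). Psme2 is uncertain, because the single-locus copy Psme2b is 99.4% identical to it over 794 aligned transcript bases and the authors' counting could split their reads. Psme3, the nuclear PA28 subunit, had 14.8 to 23.7 FPKM over all libraries and log2 differences of -0.25 and -0.18, with calls of -1.36 and -0.83 under TPM.

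**Figure D5:**
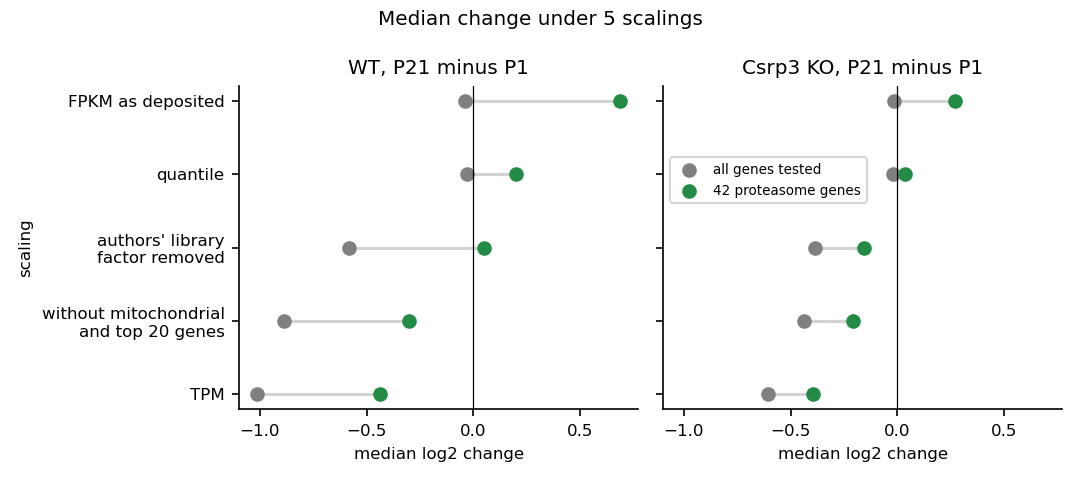
Median log2 change from P1 to P21 (x axis) of the 42 tested proteasome genes and of all 13537 genes tested under 5 scalings (y axis), in wild type (left) and Csrp3 KO (right). The proteasome median moves from 0.69 at the deposited scaling to -0.44 under TPM in wild type and lies to the right of the median of all genes under each of the 5 scalings in both genotypes.

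The spread among P21 libraries was shared by most standard subunits. The 31 standard 20S and 19S genes summed to 2259, 3045 and 1472 FPKM in WT P21 and 1511, 2183 and 1463 in Csrp3 KO P21, against 1174 to 1393 at P1. The libraries with the lowest authors' factor, WT P21 replicates 2 (0.605) and 1 (0.761) and Csrp3 KO P21 replicate 2 (0.771), had the highest sums. WT P21 replicate 2 also had the highest sums of red cell markers (42940 FPKM, against 7088 to 14999 in the other P21 libraries) and of leukocyte markers (429 FPKM), whose part in the subunit sum was not tested. With that factor removed the sums were 1718, 1841 and 1305 in WT P21, 1295, 1684 and 1381 in Csrp3 KO P21 and 1348 to 1596 at P1, so the ages overlapped. The log2 ratio of summed 20S to summed 19S FPKM, which no scaling touches, ran from -0.01 to 0.38 at P1 and from 0.20 to 0.77 at P21, highest in WT P21 replicate 2 and Csrp3 KO P21 replicate 2.

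The genotypes at P21 were compared to ask whether the libraries labelled Csrp3 KO differ from wild type. None of the 42 subunit genes passed, where 0.0591% of all genes were called higher and 0.00739% lower. An unadjusted limma p under 0.05 was reached by 3 of 42 subunit genes and by 1863 of all 13537 genes. The 3 subunit genes were Psmb9 at -1.09 (SE 0.24, adjusted p = 0.14), Psmb8 at -1.09 (SE 0.24, adjusted p = 0.141) and Psmd1 at 0.53 (SE 0.18, adjusted p = 0.271). The groups did not overlap for 2 subunit genes lower, Psmb8 and Psmb9, and for 1 higher, Psmd1, where 5.05% of all genes were lower and 6.9% higher. Each of these 3 had the smaller difference between the ages in Csrp3 KO.

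Most other subunit genes had negative log2 differences at P21, 36 of 42 in all, with a median of -0.31 beside 0.00 for all genes. Under TPM the subunit median was 0.06 beside 0.30 for all genes, and without WT P21 replicates 1 and 2 it was 0.18 beside 0.01. Psmb5 stood at -0.59 (adjusted p = 0.455), Psmb6 at -0.57 (adjusted p = 0.444), Psmb10 at -0.51 (adjusted p = 0.473), Psme1 at -0.34, Psme2 at -0.42 and Psme4 at -0.04. The genes with positive values were Psmb7 (0.54, adjusted p = 0.39), Psmd1, Psmc6 (0.22), Psmd11 (0.15), Psme3 (0.14) and Psmd14 (0.04). WT P21 replicate 3 had the lowest summed standard subunit level of its group but the highest Psmb9 and Psmd1 values. Without it, 8 subunit genes were called lower, Psmb8 and Psmb9 among them, where 7.36% of all genes were called lower. These calls rest on WT P21 replicates 1 and 2 alone, the libraries with the lowest authors' factors (0.761 and 0.605) and the fewest reads in genes.

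No leukocyte, endothelial, fibroblast, red cell, dividing cell or heart muscle marker was called between the genotypes at P21, with list medians of -0.24, -0.43, 1.09, -0.41, 0.28 and 0.13 in that order, and 0.08, -0.07, 1.46, -0.04, 0.32 and 0.50 under TPM. The interferon and antigen processing genes had a median of -0.52 at P21 (-0.15 under TPM) with 0 of 11 called, and the smallest p in that list belonged to Tapbp (-0.73, adjusted p = 0.158) and Irf1 (-0.79, adjusted p = 0.177). Their summed level was 377, 436 and 694 FPKM in WT P21 and 266, 340 and 388 in Csrp3 KO P21.

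At P1 no subunit gene passed, where 0% of all genes were called higher and 0% lower; 0 subunit genes and 82 of all genes had an unadjusted limma p under 0.05. The median subunit difference was 0.11 beside -0.01 for all genes. The groups did not overlap for 6 subunit genes, all higher in Csrp3 KO (Psmb3, Psmb4, Psmb5, Psmb6, Psmd8 and Psmd12), where 4.52% of all genes were higher and 3.44% lower. Psmb6 had 59.2, 61.6 and 76.2 FPKM in WT P1 and 83.1, 84.8 and 80.1 in Csrp3 KO P1, a log2 difference of 0.34 (SE 0.32, adjusted p = 1). Psmb8 was at 0.13 and Psmb9 at -0.19.

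The difference between the genotype effects at the 2 ages was tested directly. No subunit gene passed, where 0% of all genes were called higher and 0% lower, and 3 of 42 subunit genes and 940 of all genes had an unadjusted limma p under 0.05. Psmb8 had an interaction of -1.22 (SE 0.33, unadjusted p = 0.00363, adjusted p = 0.687), Psmb9 of -0.91 (SE 0.33, adjusted p = 0.687) and Psmd1 of 0.62 (SE 0.26, adjusted p = 0.687). The larger rise of Psmb8 in wild type than in Csrp3 KO is therefore not shown to differ.

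Genes that serve the proteasome from outside the Psm families were read beside the subunits, and their counts against all genes, of which 21.5% were called higher and 23.3% lower in wild type and 11.8% and 13.2% in Csrp3 KO (under TPM 5.65% and 62.2%, and 4.69% and 37.8%). Of 13 assembly factors and other subunits tested, 6 were called higher and 0 lower with age in wild type, with a median of 0.67, while under TPM 0 were higher and 6 lower. In Csrp3 KO 2 were higher and 0 lower, with a median of 0.32, against 0 and 3 under TPM. Pomp, the maturation factor of the 20S core, rose by 1.24 (adjusted p = 0.00588) and 0.90 (adjusted p = 0.0442), and the core chaperone Psmg2 by 0.76 and 0.61. Of 8 genes of transcriptional control, 1 was called higher and 1 lower in wild type and 2 higher in Csrp3 KO, against 5 and 1 lower and 0 higher under TPM. Nfe2l2, a factor of the oxidative stress response, rose by 1.08 (adjusted p = 0.00112) and 0.92 (adjusted p = 0.00462), and was not called under TPM. Nfe2l1, known to drive standard proteasome genes when proteasome activity is short, had 47.3 to 64.4 FPKM over all libraries. In wild type it was called lower with age under TPM and by quantiles (3109 of 13537 genes lower). The same call came without mitochondrial and top 20 genes (7294 lower) and with the authors' factor removed (6174 lower). In Csrp3 KO none of these scalings called it. Of 12 ubiquitin and delivery genes, 1 was called higher and 2 lower in wild type and 1 higher in Csrp3 KO, against 10 lower in wild type and 1 higher and 4 lower in Csrp3 KO under TPM. The shuttle receptor Rad23b fell by 0.83 in wild type.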

How the data were processed

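RNA was sequenced from 12 mouse heart samples, 3 per group, with total RNA taken by the miRNeasy micro kit and libraries made with the Ovation Ultralow V2 kit, per the labels' protocols. The submitters' processing notes name TopHat2 2.0.13, edgeR, featureCounts, Subread and FastQC, as well as 3 genome builds, with no role stated. The authors deposited 1 table of FPKM values, which were whole multiples of 1 read per library for 100% of values within 0.05 of a read. From these steps came the reads in genes and the authors' scaling factor. No source used here tells if strand was used in counting.

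The 13537 genes that reached 1 FPKM in 3 or more libraries were fitted as log2(FPKM + 0.5) with limma 3.58.1 in R 4.3.3, with 1 mean per group, trended and robust moderation, and Benjamini-Hochberg adjustment over all genes at 0.05. A fold change on this scale understates low genes. Subunit ratios were tested by exact permutation of 400 arrangements and adjusted over 6 tests. Scripts were tested on simulated data. There the fit missed most of the smaller planted changes, recovered the interaction least well, and made more false calls than the nominal share for the genotypes at P21. After this result was seen, the limit on recovery was relaxed for the interaction and that on false calls for every contrast. The model was not changed. Alternatives were other pseudocounts, filters, scalings, voom on recovered reads, model options, a replicate block and libraries left out. TPM here is FPKM rescaled to 1 summed value in all libraries, with 0.5 added on that scale.

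The genes described and the lists were chosen with earlier results of these data known. Named in each comparison were Psmb5 to Psmb10, Psme1 to Psme4, up to 8 further members per direction with the smallest adjusted p (3 by unadjusted p where none passed), those with a sign against most, and up to 4 genes per list. Others (Ptprc, Cd3e, Ngp, Cd74, Nfe2l1, Psma1, Psma3, Psma4, Psma5, Psmc1, Psmc6 and Psmd2 among them) were chosen after their values were seen. Some members of the gene lists are counted but not reported by name here.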

Additional observations from a re-analysis of the deposited data

How the results depend on the processing

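Psmb8 and Psmb9 rose with age in both genotypes, Psmb5 rose and Psmd1 fell in wild type, in all 27 alternatives run. Where a filter at 1 FPKM was used, Psmb8 and Psmb9 passed it through their P21 values alone. Leaving out a Csrp3 KO library kept the wild-type age changes as they were, and the reverse, so such runs altered only the shared estimate of spread. At the deposited scaling 19 subunit genes and 2917 of all 13537 genes were called higher at P21 in wild type. In what follows the count over all genes is in parentheses. The subunit count was 3 under TPM (765) and 3 when scaled without mitochondrial and top 20 genes (887). It was 8 by quantiles (2846), 6 with the authors' factor removed (1417) and 10 with the 2 groups alone (2015). With 1 library left out it was 12 to 30 (2033 to 3415). It was 30 without WT P21 replicate 3, and 12 without WT P1 replicate 1, WT P1 replicate 2 or WT P21 replicate 2. The count lower (1, beside 3160 of all genes) was 21 under TPM (8423), 13 without mitochondrial and top 20 genes (7294) and 7 with the factor removed (6174). It was 1 with each library left out (2235 to 3604). In Csrp3 KO the count higher (4, beside 1599 of all genes) was 2 under TPM (635) and 9 with library weights (3234). With 1 library left out it was 3 to 7 (975 to 2020), and 7 without WT P21 replicate 3 (1925). The count lower (0, beside 1789 of all genes) was 13 under TPM (5112) and 3 without mitochondrial and top 20 genes (2887). It was 5 with the factor removed (3809) and 4 with library weights (3539). The count lower in Csrp3 KO than in wild type at P21 (0, beside 1 of all genes) was 0 to 8 with 1 library left out (1 to 996). Leaving out libraries also lowers the number of samples. Beyond that, the cause was not tested.

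Of the 19 genes called higher in wild type, 13 turned in sign under TPM and 9 without mitochondrial and top 20 genes, as did all 18 that were positive and not called in both. The 13 were Psma1 (-0.47), Psma3 (-0.41), Psmc1 (-0.22), Psme1 (-0.36), Psme2 (-0.17), Psme4 (-0.065), Psmc5 (-0.14), Psmd12 (-0.34), Psmc2 (-0.45), Psmd4 (-0.18), Psmc3 (-0.13), Psma7 (-0.13) and Psmb3 (-0.13). The 9 were Psma1 (-0.33), Psma3 (-0.28), Psmc1 (-0.088), Psme1 (-0.22), Psme2 (-0.031), Psmc5 (-0.000894), Psmd12 (-0.20), Psmc2 (-0.32) and Psmd4 (-0.046). In Csrp3 KO Psmc2 was -0.10 under TPM.

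The age ratios of Psmb8/Psmb5 and Psmb9/Psmb6 missed the threshold as differences of medians (2.22 and 2.96, exact permutation test, adjusted p = 0.06) and were 1.99 to 2.32 and 2.90 to 3.40 with 1 library left out. Psmb10/Psmb7 was 0.67 to 0.97 between the ages with 1 library left out, and passed in 3 of the 12 cases. Psmb9/Psmb6 between genotypes was -1.03 to -0.53 with 1 library left out, and passed only without WT P21 replicate 2. Same-numbered libraries deviated with correlations of -0.30 to 0.49, and of 0.03, 0.49 and 0.35 between the genotypes at P21 (replicates 1, 2 and 3). Differently numbered libraries were not compared, so this cannot tell whether the numbers pair the samples. With the replicate block 22 subunit genes were higher and 1 lower in wild type, beside 2918 and 3077 of all 13537 genes. In Csrp3 KO 6 were higher and 0 lower, beside 1562 and 1687 of all genes, and 0 passed between genotypes. The age ratios of Psmb8/Psmb5 and Psmb9/Psmb6 stayed at 2.17 and 3.18 (exact sign flips, adjusted p = 0.0938). For both, the unadjusted p of the sign flips was 0.03125, the smallest that 64 arrangements can give, so a larger rise could not have lowered it. Psmb8 and Psmb9 at P1 rested on 7 to 47 reads per library, which limits their folds.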
